A study of Homo sapiens with 6 samples.

Results

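The genes described here are 10 small nucleolar RNA (snoRNA) host genes, SNHG1, SNHG3, SNHG5, SNHG6, SNHG8, SNHG12, SNHG15, SNHG32, GAS5 and ZFAS1. They were chosen by name, with earlier results of these data known, from the 29538 genes of the deposited count table. All 10 were among the 16412 genes with enough counts to be tested. Poly(A) RNA was sequenced with its strand kept in cultures of MDA-MB-231, a human triple-negative breast cancer line with mesenchymal features. 3 cultures received an siRNA against BYSL (siBYSL), and 3 received a negative-control siRNA (siNC). BYSL encodes bystin, a factor needed to mature the small ribosomal subunit, and the comparison asks what differs when its mRNA is lowered. Each well was given 160 pmol siRNA with 4 µL Lipofectamine RNAiMAX, the medium was replaced after 6 h and cells were harvested at 48 h. The libraries of a group are called independent biological replicates by the labels. The design holds a single cell line and 1 siRNA duplex against BYSL, and nothing in the labels describes an additional duplex or a rescue.

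A snoRNA host gene carries snoRNAs in its introns. Splicing frees the intron, which is trimmed to the snoRNA, and the snoRNA joins a set of proteins that modifies ribosomal RNA at sites it pairs with. Box C/D snoRNAs guide methylation of the ribose, and box H/ACA snoRNAs guide the conversion of uridine to pseudouridine. The spliced exons of the host gene are exported, often read by ribosomes over short frames and commonly degraded by nonsense-mediated decay. Many host genes begin, like ribosomal protein mRNAs, with a pyrimidine run called a terminal oligopyrimidine (TOP) tract, which ties translation to growth signals. In RefSeq the 10 genes held 36 snoRNAs, of which 27 were named as box C/D, 8 as box H/ACA and 1 under another kind of name.

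The starts of these genes are shown because a TOP tract is a feature that the choice of genes did not use. Each line runs from 40 bases before the RefSeq start (build GRCh38.p14) to the first 20 bases of the transcript, 5′ to 3′ on the strand of the gene, so that base 41 is the annotated start. Capitals mark a C followed by at least 4 pyrimidines that begins within 10 bases of the start, and SNHG1 is given as a gene without one. A promoter was found for 8 of the 10 genes in the table used.
SNHG5 (chr6:85678714-85678773, minus strand): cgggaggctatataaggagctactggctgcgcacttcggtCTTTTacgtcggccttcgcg
SNHG12 (chr1:28581854-28581913, minus strand): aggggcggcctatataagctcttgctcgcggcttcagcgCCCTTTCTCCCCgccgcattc
SNHG32 (chr6:31834876-31834935, plus strand): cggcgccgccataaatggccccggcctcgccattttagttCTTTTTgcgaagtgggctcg
ZFAS1 (chr20:49278602-49278661, plus strand): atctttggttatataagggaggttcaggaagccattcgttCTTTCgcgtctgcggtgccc
SNHG8 (chr4:118278722-118278781, plus strand): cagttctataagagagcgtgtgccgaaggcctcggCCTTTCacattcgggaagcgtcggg
SNHG1 (chr11:62855866-62855925, minus strand): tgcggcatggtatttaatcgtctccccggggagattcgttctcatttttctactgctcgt

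In SNHG5, SNHG12, SNHG32 and ZFAS1 the annotated start base was itself a C followed by at least 4 pyrimidines. The same held for 4.07% of 35116 RefSeq promoters. With any start of the tract within 10 bases allowed, SNHG8 joined them, making 5 of 8 genes against 33.5% of all promoters. The tract of SNHG8 begins 5 bases before the start and ends on the start base. Among genes with a promoter found, the start base opened such a tract in 3 of 18 other noncoding snoRNA host genes. It did so in 6 of 14 protein-coding hosts outside the ribosome, 10 of 15 ribosomal protein hosts and 33 of 48 other ribosomal protein genes. The letters TATAA lay between 40 and 16 bases before the start in SNHG5, SNHG8, SNHG12 and ZFAS1, and in 3.91% of all promoters. In the same lists they were in 2 of 18 other noncoding hosts, 4 of 14 protein-coding hosts, 0 of 15 ribosomal protein hosts and 6 of 48 other ribosomal protein genes. That motif was picked after the sequences had been seen. CACGTG, the E-box that MYC and MAX bind, reads the same on both strands. It was in 0 of the 8 windows from 250 bases before to 50 after the start, and in 7.26% of all promoters. Motifs other than CACGTG were sought on the strand of the gene, and a match is a match of letters and not a tested site.

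Library totals ran from 27754883 to 32088817 counts in siBYSL and from 28606048 to 30476744 counts in siNC. Levels below are in CPM, the count divided by the scaled size of its library, that is, a share of the poly(A) RNA and not an amount per cell. BYSL itself had 15.9, 15.7 and 17.4 CPM in siBYSL libraries 1, 2 and 3, against 104, 94.5 and 101 CPM in siNC libraries 1, 2 and 3 (log2 fold change -2.61, SE 0.067, adjusted p = 9.4e-09). The mesenchymal markers VIM and CD44 averaged 2085 and 894 CPM in siBYSL and 2404 and 782 CPM in siNC. VIM was called lower in siBYSL (log2 fold change -0.21, adjusted p = 0.00823) and CD44 higher (log2 fold change 0.19, adjusted p = 0.0143). Of 5 epithelial or luminal markers 2 were called higher in siBYSL, namely CDH1 (9.18 CPM in siBYSL, 4.48 CPM in siNC) and EPCAM (20.9 CPM in siBYSL, 14.4 CPM in siNC). The 5 summed to 43.5 to 45.8 CPM in siBYSL and 30.7 to 34.0 CPM in siNC, with ESR1 near 0 in both. The leukocyte, endothelial and fibroblast markers PTPRC, PECAM1 and COL1A1 summed to 13.7 to 14.9 CPM in siBYSL and 11.8 to 12.6 CPM in siNC, and PECAM1 and COL1A1 were not called. ESR1, PGR and PTPRC had too few counts to be tested. The part of these shifts in the results below was not tested. In bulk RNA, fewer cells that express a gene and less of its RNA per cell cannot be told apart.

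Across the 10 host genes, 6 were called lower in siBYSL, 0 were called higher and 4 were not called. A call is an adjusted p under 0.05 in the edgeR quasi-likelihood test, with Benjamini-Hochberg adjustment over all 16412 genes. Over all those genes 18.4% were called lower, 18.5% higher and 36.9% either way. Because the 10 were chosen with earlier results known, no p-value is given for their count. The deepest falls were in SNHG15, at 66.7% of the siNC mean, and SNHG1, at 69.2%, followed by SNHG3, SNHG32, ZFAS1 and SNHG12. The mean was lower in siBYSL for 9 of the 10, SNHG5 being the exception, and the median log2 fold change was -0.25, beside 0.0066 over all genes tested. In 5 genes, SNHG1, SNHG3, SNHG12, SNHG15 and SNHG32, every siBYSL library lay below every siNC library, as did 24.9% of all genes tested. The table calls all 10 long noncoding RNAs (lncRNAs), a class in which 7.15% of 2351 tested genes were called lower and 14.6% higher, with a median log2 fold change of 0.13. Among 13361 tested protein-coding genes 20.9% were called lower and 19.7% higher.

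**Figure D1:**
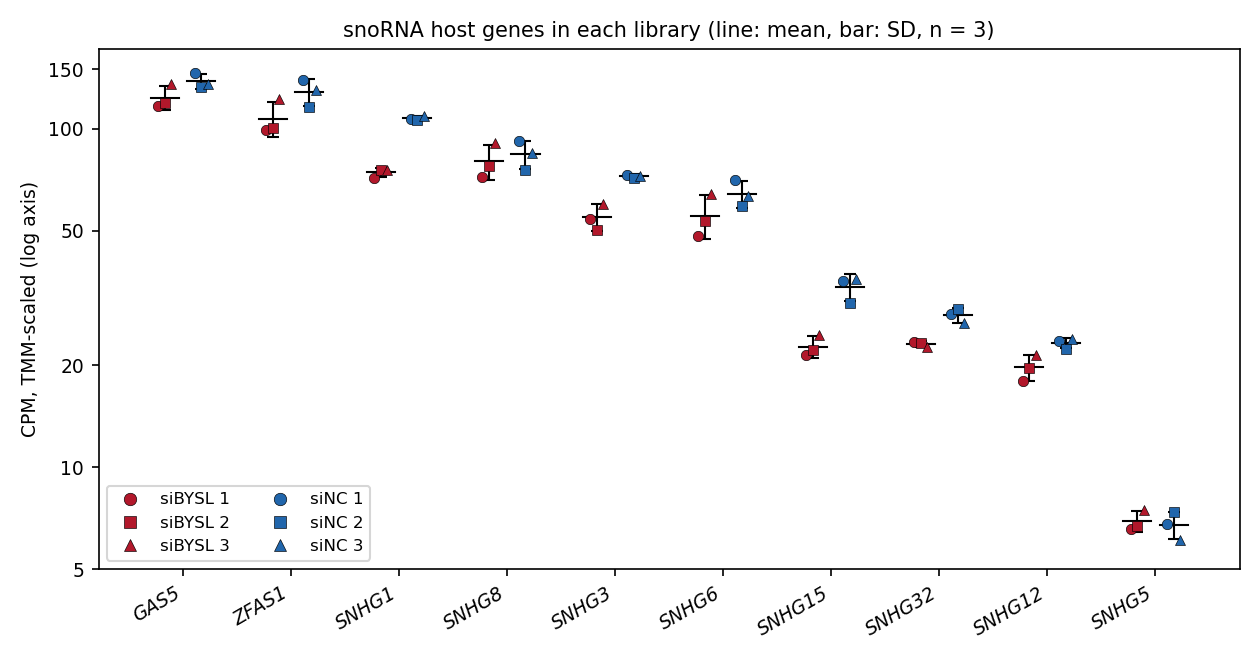
Level of each host gene in every library, in CPM on a log axis, with siBYSL in red left of siNC in blue, 1 symbol per library, a line at each mean and a bar for the SD (n = 3). The siBYSL points of SNHG1 lie between 71.7 and 75.8 CPM, below the siNC points at 106 to 109 CPM, while those of SNHG5 and SNHG8 overlap with siNC.

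The members that host box C/D snoRNAs alone were SNHG1, SNHG5, SNHG6, SNHG32 and ZFAS1, and 3 of these 5 were called lower. SNHG1 (ENSG00000255717.7, chr11:62851988-62855914, minus strand, GENCODE 29 on GRCh38) carries 9 snoRNAs, 8 of them named as box C/D and 1 under another kind of name. It had 71.7, 75.6 and 75.8 CPM in siBYSL libraries 1, 2 and 3, against 107, 106 and 109 CPM in siNC libraries 1, 2 and 3. The libraries of each group lay close together and far from those of the other group. The log2 fold change was -0.53 (SE 0.0498, 95% interval -0.64 to -0.42, adjusted p = 2.4e-05), from 2070 to 2500 counts per siBYSL library and 2972 to 3248 per siNC library.

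SNHG32 (ENSG00000204387.14, chr6:31834608-31839766, plus strand), the host of SNORD48 and SNORD52, was named C6orf48 and classed as protein-coding in GENCODE 29. Its levels were 23.4, 23.3 and 22.6 CPM in siBYSL libraries 1, 2 and 3, against 28.3, 29.4 and 26.6 CPM in siNC libraries 1, 2 and 3. All 3 siBYSL values were below the lowest siNC value, and siBYSL library 3 was the lowest of all, unlike in the other 9 genes. The log2 fold change was -0.28 (SE 0.0643, adjusted p = 0.00579).

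ZFAS1 (ENSG00000177410.13, chr20:49278178-49295738, plus strand) hosts 3 snoRNAs of the SNORD12 family, and its spliced RNA has been found on the small ribosomal subunit. It had 99.3, 100 and 122 CPM in siBYSL libraries 1, 2 and 3, against 139, 116 and 130 CPM in siNC libraries 1, 2 and 3. The groups overlapped, since siBYSL library 3 exceeded siNC library 2. Its fall of 0.26 on the log2 scale (SE 0.0885) had an adjusted p of 0.0407. That call was lost without siBYSL library 1 (adjusted p = 0.0991), siBYSL library 2 (0.152), siNC library 1 (0.165) or siNC library 3 (0.122), with library totals in place of scaling factors (0.109), with upper-quartile factors (0.0879) and with a stricter filter (0.0512). Over all 15 alternatives its direction stayed negative.

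SNHG5 and SNHG6 were not called. SNHG5 (ENSG00000203875.13, chr6:85660950-85678748, minus strand), the host of the SNORD50 pair, had 6.59, 6.72 and 7.50 CPM in siBYSL libraries 1, 2 and 3, against 6.80, 7.35 and 6.10 CPM in siNC libraries 1, 2 and 3. The values were interleaved, and the 95% interval of the log2 fold change ran from -0.20 to 0.28 (adjusted p = 0.802). SNHG6 (ENSG00000245910.8, chr8:66921684-66926398, minus strand), the host of SNORD87, had 48.3, 53.5 and 64.4 CPM in siBYSL libraries 1, 2 and 3. In siNC libraries 1, 2 and 3 it had 70.4, 59.0 and 63.2 CPM. siBYSL library 3 lay within the siNC range and the other 2 below it, giving a log2 fold change of -0.21 (interval -0.43 to 0.0078, adjusted p = 0.119). Without siBYSL library 3 the adjusted p was 0.000422, and over the 15 alternatives it ran from 0.000422 to 0.371.

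The members that host box H/ACA snoRNAs alone were SNHG3, SNHG8 and SNHG15, of which SNHG3 and SNHG15 were called lower. SNHG15 (ENSG00000232956.9, chr7:44983023-44986961, minus strand), the host of SNORA9, had 21.4, 22.2 and 24.6 CPM in siBYSL libraries 1, 2 and 3. It had 35.6, 30.5 and 36.1 CPM in siNC libraries 1, 2 and 3, all above the siBYSL values. The log2 fold change was -0.58 (SE 0.0827, interval -0.77 to -0.40, adjusted p = 0.000323).

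SNHG3 (ENSG00000242125.3, chr1:28505980-28510892, plus strand) hosts SNORA73A and SNORA73B, also known as U17, which act in the processing of the ribosomal RNA precursor. Its levels were 54.3, 50.3 and 60.0 CPM in siBYSL libraries 1, 2 and 3, against 73.3, 71.5 and 72.7 CPM in siNC libraries 1, 2 and 3. The siNC libraries were nearly equal and the siBYSL libraries more spread, without overlap. The log2 fold change was -0.40 (SE 0.0667, adjusted p = 0.000885).

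SNHG8 (ENSG00000269893.8, chr4:118278709-118279823, plus strand), the host of SNORA24, had 72.3, 77.8 and 90.7 CPM in siBYSL libraries 1, 2 and 3. It had 91.7, 75.7 and 85.0 CPM in siNC libraries 1, 2 and 3. The groups overlapped, with a log2 fold change of -0.068 (interval -0.27 to 0.13, adjusted p = 0.586). Without siBYSL library 3 the adjusted p was 0.0442, the lowest of the 15 alternatives.

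The remaining pair, SNHG12 and GAS5, hosts both kinds of snoRNA. SNHG12 (ENSG00000197989.14, chr1:28578538-28583132, minus strand) holds SNORD99 and 3 box H/ACA snoRNAs. It had 18.0, 19.7 and 21.5 CPM in siBYSL libraries 1, 2 and 3, against 23.6, 22.4 and 23.9 CPM in siNC libraries 1, 2 and 3. The groups did not overlap, and the log2 fold change was -0.24 (SE 0.0776, adjusted p = 0.032). The call was lost without siBYSL library 1 (adjusted p = 0.0993), siBYSL library 2 (0.0931), siNC library 1 (0.0983), siNC library 2 (0.0561) or siNC library 3 (0.116), and with library totals (0.113) or upper-quartile factors (0.0758).

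GAS5 (ENSG00000234741.8, chr1:173863900-173868882, minus strand) holds 10 box C/D snoRNAs and 1 box H/ACA snoRNA, and its RNA is a classic case of a TOP transcript that is spared from decay when cells stop growing. Its levels were 116, 119 and 135 CPM in siBYSL libraries 1, 2 and 3, against 147, 133 and 135 CPM in siNC libraries 1, 2 and 3. siBYSL libraries 1 and 2 were below all siNC libraries, while library 3 lay within their range. The log2 fold change was -0.16 (interval -0.31 to -0.013), with an adjusted p of 0.0828. Without siBYSL library 3 the adjusted p was 0.000229, and with no filter on low counts it was 0.0291, out of a range of 0.000229 to 0.331 over the 15 alternatives.

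**Figure D2:**
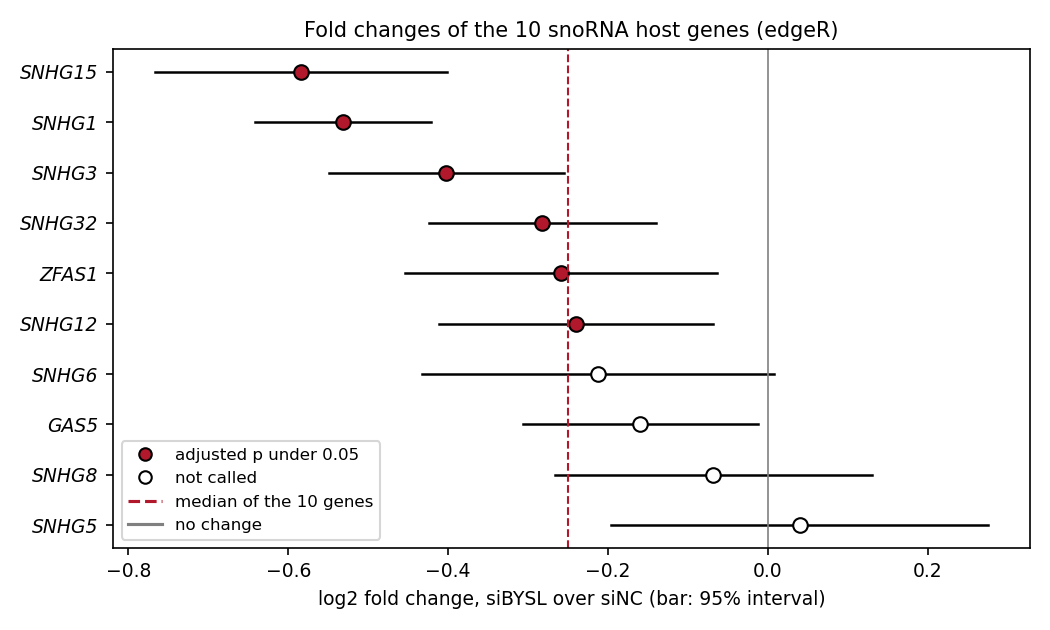
Log2 fold change of each host gene, siBYSL over siNC, with its 95% interval from the edgeR quasi-likelihood fit, in the order of the estimates; filled points were called and the dashed line is their median over the 10 genes. The intervals of SNHG15 (-0.77 to -0.40) and SNHG1 (-0.64 to -0.42) lie farthest below 0, and those of SNHG5, SNHG6 and SNHG8 include 0.

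SNHG1, SNHG3, SNHG15 and SNHG32 were called lower under each of the 15 alternatives run. The number of members called lower was 4 without siBYSL library 1 or 2 or without siNC library 1 or 3, 5 without siNC library 2 and 9 without siBYSL library 3. In the last case SNHG5 was the member not called. Over all genes tested, 4075 of 16743 were called lower without siBYSL library 3, against 3027 of 16412 with every library kept. Without siBYSL library 1 or 2 they were 2847 of 16741 and 2204 of 16719. Without siNC library 1, 2 or 3 they were 2252 of 16775, 2297 of 16793 and 2105 of 16790. The sign of the fold change of SNHG5 turned without siBYSL library 3 (-0.018) or siNC library 3 (-0.031), and that of SNHG8 with library totals (0.0092) or without siBYSL library 1 (0.0026), none of them called.

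The libraries of siBYSL differed among themselves in the same order for most members. Within siBYSL, library 3 had the highest level in 9 of the 10 genes and library 1 the lowest in 8, and within siNC, library 2 had the lowest in 8. The median over the members of the log2 difference from the siNC mean was -0.37, -0.27 and -0.093 in siBYSL libraries 1, 2 and 3, and 0.042, -0.059 and 0.0090 in siNC libraries 1, 2 and 3. The same quantity over 79 ribosomal protein genes was -0.34, -0.21 and 0.11 in siBYSL libraries 1, 2 and 3, and 0.090, -0.10 and 0.0052 in siNC libraries 1, 2 and 3. Both sets were thus highest in siBYSL library 3 within siBYSL and lowest in siNC library 2 within siNC. What sets the libraries apart was not tested. SNHG1, SNHG3, SNHG12, SNHG15 and SNHG32 were named above for having every siBYSL library below every siNC library, which includes siBYSL library 3. In that library their log2 differences from the siNC mean were -0.51, -0.27, -0.12, -0.47 and -0.31.

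**Figure D3:**
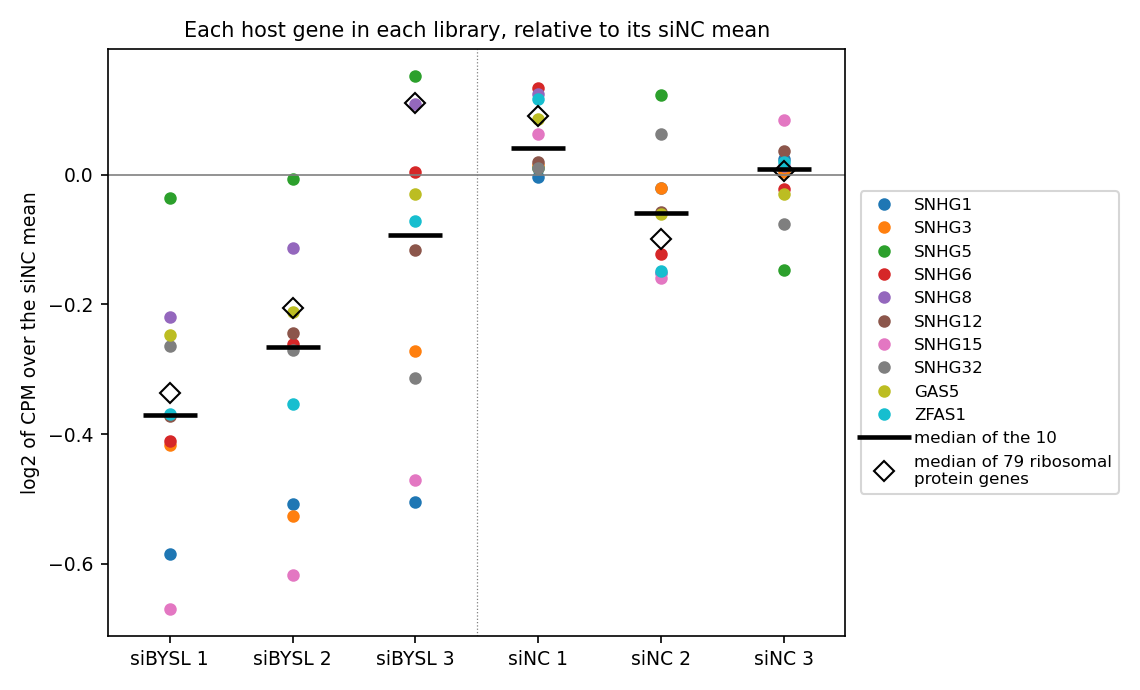
Log2 difference of each host gene from its siNC mean in each library, siBYSL libraries left of siNC libraries, with the median of the 10 members and of 79 ribosomal protein genes. Member medians are -0.37, -0.27 and -0.093 in siBYSL libraries 1, 2 and 3 and close to 0 in siNC.

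Summed over the 10 genes, the level was 568 ± 49.4 CPM in siBYSL and 687 ± 36.3 CPM in siNC (SD, n = 3 each). The members made up 4.28 ± 0.116% of all lncRNA counts in siBYSL and 5.39 ± 0.155% in siNC, and the 2 ranges did not overlap. That share also depends on the other lncRNAs, and the median log2 fold change of tested lncRNAs was 0.13. Of all counts the members made up 0.0583 ± 0.0042% in siBYSL and 0.0668 ± 0.003% in siNC. There siBYSL library 3, at 0.0631%, lay just below siNC library 2, at 0.0637%.

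Levels can be set against each other only per length of transcript, here CPM divided by the kilobases of merged GENCODE 29 exons. The order of the 10 genes on this scale was the same in both groups. SNHG8 was highest, at 87.0 ± 10.3 in siBYSL and 91.2 ± 8.70 in siNC (SD, n = 3 each here and below). ZFAS1 followed with 47.8 ± 5.75 in siBYSL and 57.2 ± 5.26 in siNC, and SNHG6 with 44.4 ± 6.58 in siBYSL and 51.5 ± 4.63 in siNC. GAS5 stood at 34.1 ± 2.80 in siBYSL and 38.1 ± 2.04 in siNC, and SNHG1 at 19.8 ± 0.611 in siBYSL and 28.6 ± 0.456 in siNC. SNHG3 had 13.4 ± 1.19 in siBYSL and 17.7 ± 0.223 in siNC, close to SNHG32 with 12.8 ± 0.240 in siBYSL and 15.6 ± 0.760 in siNC. SNHG15 had 6.23 ± 0.451 in siBYSL and 9.34 ± 0.850 in siNC, SNHG12 had 4.62 ± 0.411 in siBYSL and 5.46 ± 0.189 in siNC, and SNHG5 was lowest at 2.47 ± 0.176 in siBYSL and 2.41 ± 0.224 in siNC. Neighbours in this order whose libraries overlapped were ZFAS1 and SNHG6 in both groups, and SNHG3 and SNHG32 in siBYSL. With the median annotated transcript length in place of merged exons, GAS5 took the first place at 180 in siBYSL and 201 in siNC, ahead of SNHG8 at 171 in siBYSL and 179 in siNC. SNHG1 then passed SNHG6, SNHG32 passed SNHG3, and SNHG15 ranked below SNHG3 in siBYSL and above it in siNC. The means of SNHG15 and SNHG3 were 23.9 and 24.9 in siBYSL and 35.8 and 32.9 in siNC, and their libraries overlapped in both groups. The order of the means among members, and whether it is the same in both groups, thus depends on the length used.

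The snoRNAs themselves were hardly measured. Only 3 of the 36 had an entry in the count table, SNORA73B, SNORD99 and SNORD12C, with at most 17, 10 and 4 counts in a library. The falls above are therefore those of host transcripts in poly(A) RNA, and the level of the mature snoRNAs was not measured.

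Several members share a start region or exons with another gene, and its values are given beside them. SLC3A2, a subunit of amino acid transporters that starts 188 bases from SNHG1 on the opposite strand, averaged 159 CPM in siBYSL and 189 CPM in siNC (log2 fold change -0.25, adjusted p = 0.00335). RCC1, the nucleotide exchange factor of the GTPase Ran, starts 37 bases from SNHG3 on the same strand, and 5.92% of the exon bases of SNHG3 are also exons of RCC1. It averaged 78.2 CPM in siBYSL and 94.4 CPM in siNC (log2 fold change -0.27, adjusted p = 0.00207), so reads in the shared exons could have been counted for either gene. ZNFX1 starts 248 bases from ZFAS1 on the opposite strand and overlaps 11.1% of its exon bases. It averaged 94.3 CPM in siBYSL and 87.9 CPM in siNC (log2 fold change 0.10, adjusted p = 0.205), while ZFAS1 was called lower. Without siBYSL library 3 ZNFX1 was called higher (adjusted p = 0.00662).

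TRNAU1AP, a protein of selenocysteine incorporation, lies on the strand opposite SNHG12 and shares 8 exon bases with it. It averaged 30.7 CPM in siBYSL and 39.1 CPM in siNC, with overlapping groups (log2 fold change -0.35, adjusted p = 0.0181). That call was lost without siBYSL library 2 (0.0795), siNC library 1 (0.0871) or siNC library 3 (0.0664). ZBTB37, a zinc finger gene 800 bases from the start of GAS5 on the opposite strand, averaged 8.77 CPM in siBYSL and 10.4 CPM in siNC (log2 fold change -0.25, adjusted p = 0.0615). XXbac-BPG254B15.11, a processed transcript that shares 23.2% of the exon bases of SNHG32 on the same strand, averaged 111 CPM in siBYSL and 118 CPM in siNC (log2 fold change -0.084, adjusted p = 0.36), and without siBYSL library 3 it was called lower (-0.14, adjusted p = 0.019). GAS5-AS1 and MCMDC2, which overlap GAS5 and SNHG6 on the opposite strand, had only 95 and 60 counts in all 6 libraries. Libraries were strand-specific, but no source used here gives the strand setting of the counting.

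The guide strand of an siRNA can act on other transcripts through bases 2 to 8, its seed, in the manner of a miRNA. The BYSL duplex is shown with these bases in capitals, each strand 5′ to 3′ as the labels give it.
siBYSL antisense (guide): uAUUCAGCaacgucaucuctt
siBYSL sense (passenger): gAGAUGACguugcugaauatt
The heptamer that pairs with the guide seed, GCTGAAT, was in a spliced GENCODE 29 transcript of 3 members, in 7 of 10 transcripts of SNHG15, 3 of 29 of GAS5 and 1 of 3 of SNHG3. The passenger heptamer GTCATCT was in 5 of 25 transcripts of SNHG1 and 2 of 10 of SNHG15. For each of the 3 genes a guide match is shown in 1 of its transcripts, with the heptamer in capitals.
SNHG15, transcript 202: tgaggagtggaGCTGAATttgaatgcaagc
SNHG3, transcript 202: taattagaataGCTGAATatgcatgttacc
GAS5, transcript 204: tacctcctagtGCTGAATgcattaaataaa

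Of the 3 members with the guide heptamer SNHG15 and SNHG3 were called lower, and of the 7 without it 4 were called lower. SNHG1 and SNHG15, the members with the passenger heptamer, were called lower. Of the members without the passenger heptamer, SNHG3, SNHG12, SNHG32 and ZFAS1 were called lower, and SNHG5, SNHG6, SNHG8 and GAS5 were not. Among tested genes with a GENCODE 29 transcript the guide heptamer was in 26.6% of 16229 genes and in 14.7% of 2226 lncRNA genes. For the passenger heptamer these shares were 28.4% and 15.0%. Longer transcripts hold any heptamer more often, and whether the siRNA acts through these letters was not tested.

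Calls were also counted by what the promoter holds. In 4 members the RefSeq start base was a C followed by at least 4 pyrimidines. Among them SNHG12, SNHG32 and ZFAS1 were called lower and SNHG5 was not. Of the 4 without such a run from that base on, SNHG1 and SNHG3 were called lower, and SNHG8 and GAS5 were not. SNHG8 is counted with the latter although its tract, which begins 5 bases earlier, ends on the RefSeq start base. The grouping rests on that start: for GAS5 it lies 163 bases upstream of the GENCODE 29 gene start, and for the 8 genes the 2 annotations differ by 15 to 1259 bases.

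Other snoRNA host genes were counted in the same fit, and each share below stands beside the 18.4% of all tested genes called lower. Of 20 other noncoding host genes 17 were tested, 4 (23.5%) were called lower and 0 higher, close to the share over all genes, with a median log2 fold change of -0.15. SNHG21 averaged 3.15 ± 0.261 CPM in siBYSL and 5.02 ± 0.212 CPM in siNC (SD, n = 3 each, log2 fold change -0.68, adjusted p = 0.00133). SNHG16 averaged 165 ± 17.9 CPM in siBYSL and 205 ± 6.54 CPM in siNC (log2 fold change -0.31, adjusted p = 0.0066). SNHG14, SNHG22 and SNHG31 had at most 8, 17 and 7 counts in a library and were not tested. The count of 4 became 2 without siBYSL library 1 or 2 or siNC library 2, and 10 without siBYSL library 3, and 1 was called higher without siBYSL library 1.

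Of 14 protein-coding host genes outside the ribosome 8 (57.1%) were called lower and 1 higher, with a median of -0.20. The genes called lower included RCC1, NOP56 and DKC1, and EIF4A1, a helicase that opens mRNA leaders for translation, rose to 111 ± 18.0 CPM in siBYSL, against 78.2 ± 4.96 CPM in siNC (log2 fold change 0.51, adjusted p = 0.00238). The 8 became 5 without siBYSL library 2 or siNC library 3 and 4 without siNC library 1. Of 21 ribosomal protein genes that host snoRNAs 2 (9.52%) were called lower and 0 higher, with a median of -0.16, fewer called than among all genes tested. RPL10, of the large ribosomal subunit, averaged 815 ± 95.4 CPM in siBYSL and 1050.0 ± 38.3 CPM in siNC (log2 fold change -0.36, adjusted p = 0.00423). Without siBYSL library 3 all 21 were called lower, and without siBYSL library 1 or 2 or siNC library 1 or 3 only 1 was.

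The other ribosomal protein genes, some of which also host snoRNAs, were counted apart. Of 58 other ribosomal protein genes 7 (12.1%) were called lower and 0 higher, also a smaller share than over all genes, with a median of -0.13. RPL41 averaged 425 ± 66.8 CPM in siBYSL and 553 ± 22.6 CPM in siNC (log2 fold change -0.38, adjusted p = 0.00921). Without siBYSL library 3 the 7 became 49, without siNC library 2 they became 4, and without each of the other 4 libraries 1 gene was called lower. Without siBYSL library 1 the 0 called higher became 1. Ribosomal protein genes have many processed pseudogenes, among which reads may have been divided.

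Of 15 translation factors and other TOP mRNAs 9 (60.0%) were called lower and 1 higher, with a median of -0.20. This list shares 4 genes with the protein-coding hosts, RACK1, TPT1, EEF2 and EEF1B2, and 3 of them are among the genes called lower in both. HNRNPA1, an RNA-binding splicing regulator, averaged 482 ± 11.1 CPM in siBYSL and 824 ± 12.8 CPM in siNC (log2 fold change -0.77, adjusted p = 2.54e-06). NPM1, a nucleolar chaperone, averaged 1170 ± 26.3 CPM in siBYSL and 1419 ± 30.4 CPM in siNC (log2 fold change -0.28, adjusted p = 0.00166). EIF3F, a subunit of initiation factor 3, was the gene that rose, to 220 ± 14.2 CPM in siBYSL, against 173 ± 6.85 CPM in siNC (log2 fold change 0.35, adjusted p = 0.00101). The 9 became 3 without siBYSL library 2 or siNC library 1, 4 without siNC library 2 and 2 without siNC library 3, and the 1 called higher became 2 without siBYSL library 3.

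Proteins that bind the snoRNAs form the next list. Of the 8 core proteins of box C/D and box H/ACA particles 6 (75.0%) were called lower and 0 higher, with a median of -0.25, and NOP56 and DKC1 are also counted above as host genes. The core of box C/D particles is made of the methyltransferase fibrillarin (FBL), NOP56, NOP58 and SNU13, and all 4 were among them. NOP56 averaged 223 ± 16.5 CPM in siBYSL and 279 ± 13.2 CPM in siNC (log2 fold change -0.33, adjusted p = 0.00227). SNU13 averaged 119 ± 12.9 CPM in siBYSL and 148 ± 3.22 CPM in siNC (log2 fold change -0.31, adjusted p = 0.00576), and NOP58 averaged 98.0 ± 5.47 CPM in siBYSL and 116 ± 2.32 CPM in siNC (log2 fold change -0.24, adjusted p = 0.00525). DKC1, the pseudouridine synthase of box H/ACA particles, averaged 75.6 ± 5.76 CPM in siBYSL and 92.5 ± 1.11 CPM in siNC (log2 fold change -0.29, adjusted p = 0.00364). NHP2 and NOP10 of the same particles had log2 fold changes of -0.17 and -0.21 and were not called (adjusted p = 0.133 and 0.136).

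Of 12 factors that assemble these particles 4 (33.3%) were called lower and 1 higher, with a median of -0.16. RUVBL1, an ATPase of the assembly chaperone, averaged 70.2 ± 1.90 CPM in siBYSL and 87.7 ± 4.38 CPM in siNC (log2 fold change -0.32, adjusted p = 0.00117). ZNHIT6, a box C/D assembly factor, averaged 61.9 ± 5.70 CPM in siBYSL and 78.7 ± 2.94 CPM in siNC (log2 fold change -0.35, adjusted p = 0.00297). NOLC1, a nucleolar chaperone of both particle kinds, rose to 156 ± 7.70 CPM in siBYSL, against 84.6 ± 2.50 CPM in siNC (log2 fold change 0.88, adjusted p = 1.8e-06). The 4 became 2 without siBYSL library 2 or siNC library 1 or 3.

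Of 15 nonsense-mediated decay and exon junction factors 4 (26.7%) were called lower and 0 higher, with a median of -0.14. They included SMG5, which acts in the decay of marked mRNAs (74.9 ± 2.47 CPM in siBYSL, 90.9 ± 2.25 CPM in siNC, log2 fold change -0.28, adjusted p = 0.00166), and the exon junction protein MAGOH (60.3 ± 2.81 CPM in siBYSL, 74.8 ± 3.15 CPM in siNC, log2 fold change -0.31, adjusted p = 0.00184). The 4 became 7 and the 0 called higher became 1 without siBYSL library 3. Of 11 regulators of TOP mRNAs 4 (36.4%) were called lower and 0 higher, with a median of -0.17. EIF4EBP1, a repressor of cap-dependent translation, averaged 51.2 ± 7.88 CPM in siBYSL and 82.8 ± 7.58 CPM in siNC (log2 fold change -0.69, adjusted p = 0.000394). LARP4, which binds poly(A) tails, averaged 87.5 ± 9.58 CPM in siBYSL and 117 ± 1.64 CPM in siNC (log2 fold change -0.42, adjusted p = 0.00109). MYC, which binds E-boxes, had a log2 fold change of 0.055 (adjusted p = 0.503). MAX, its partner, averaged 74.2 ± 4.14 CPM in siBYSL and 84.4 ± 0.367 CPM in siNC (log2 fold change -0.18, adjusted p = 0.0228). That call was lost without siBYSL library 2 (0.0729), siNC library 1 (0.0746), siNC library 2 (0.075) or siNC library 3 (0.079), and with library totals (0.203) or upper-quartile factors (0.0567). For the list, the 4 became 2 without siBYSL library 2 or siNC library 2 or 3, and the 0 called higher became 3 without siBYSL library 3.

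**Figure D4:**
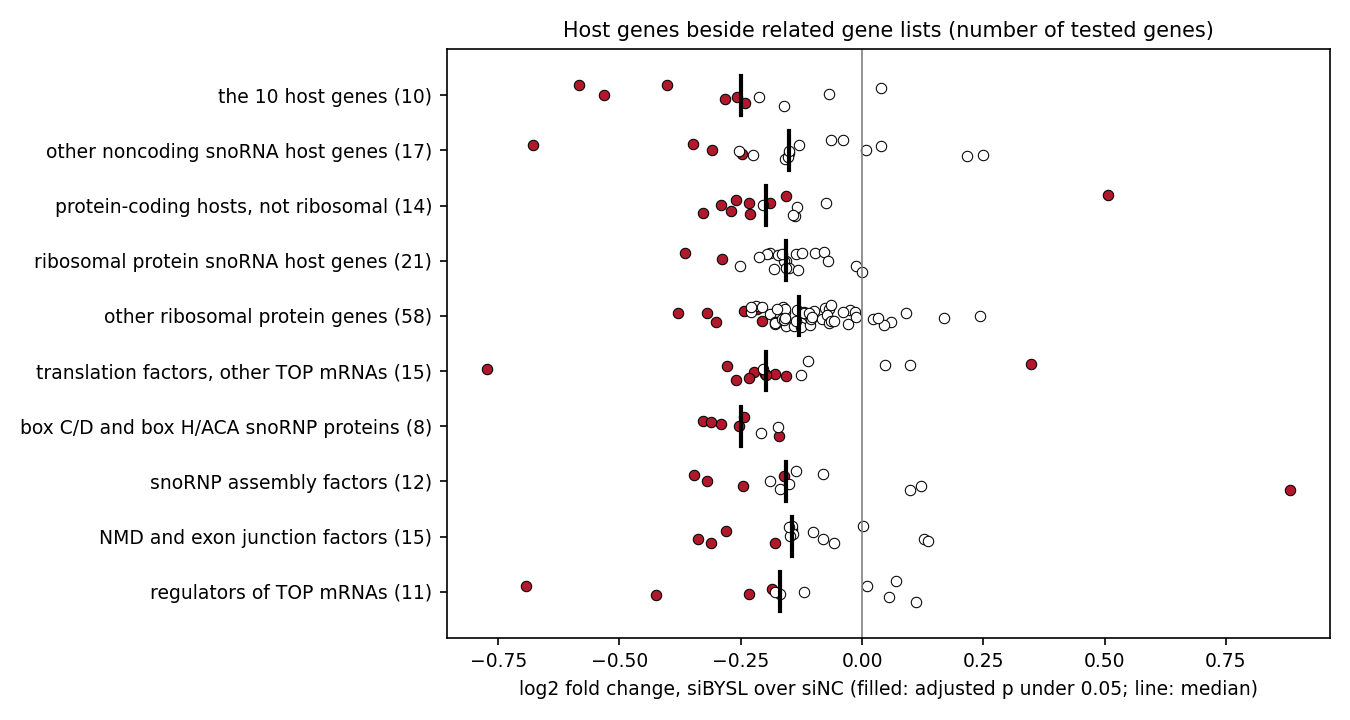
Log2 fold changes, siBYSL over siNC, of the tested genes of each list, with points filled where the gene was called and a line at the median of the list. The medians run from -0.25 for the 10 host genes and the snoRNP core proteins to -0.13 for the other ribosomal protein genes, and NOLC1 at 0.88 lies farthest above 0.

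Genes with the pattern nearest to the mean of the members were sought among 9923 tested genes of 10 CPM or more. Over the 6 libraries the highest Pearson correlations of log2 CPM with that mean were those of PPP1CA, a catalytic subunit of protein phosphatase 1 (0.9995), S100A10, the annexin A2 partner (0.9994), SLC43A3, a purine transporter (0.9992), RP11-111K18.1 (0.9984) and BANF1, a chromatin-binding nuclear envelope protein (0.9984). Their log2 fold changes ran from -0.31 to -0.26. The points are the same 6 libraries for each gene and share their scaling, and the largest of many correlations over 6 points is high by choice.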

How the data were processed

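Poly(A) RNA was sequenced strand-specifically as 150-nt read pairs on a NovaSeq X Plus, per the labels' protocols. The authors deposited raw counts per gene for the 6 libraries in a single table. Per the submitters' processing notes, HISAT2 and DESeq2 were among the tools and GRCh38.p13 was the build, with no version or step stated. No source used here names the counting tool or annotation release. The labels name 3 libraries a group, and p-values describe the spread between these.

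Analyses ran in R 4.3.3 with edgeR 4.0.16, limma 3.58.1 and DESeq2 1.42.0 and in Python 3.11.15 with pandas 2.3.3 and Matplotlib 3.10.9. Low counts were removed with filterByExpr by group (16412 of 29538 genes left), the rest was scaled with TMM factors (1.01 to 1.04 in siBYSL, 0.964 to 0.981 in siNC) and compared with edgeR's robust quasi-likelihood test, and p-values were adjusted over all of them by Benjamini-Hochberg. The SE is the size of the log2 fold change over the root of its F statistic. The common biological coefficient of variation was 0.0649. The script was tested on simulated data. As alternatives, scaling was done with library totals, upper-quartile factors or DESeq2 size factors, the filter was dropped or raised to 1 CPM in 3 libraries, and the test was the DESeq2 Wald test or limma-voom. Further alternatives were mitochondrial genes left out, the replicate number as a block and each library left out. Coordinates, exon lengths and transcripts are from GENCODE 29 on GRCh38. In 7 of the 10 members the version of the Ensembl identifier differed from that in the table, so lengths and overlaps may differ from those used for counting. Promoters are from RefSeq (GRCh38.p14).

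The members and gene lists were chosen with earlier results of these data known. Named genes were the members, BYSL, up to 4 genes per list with the smallest p, neighbours whose start lies within 5000 bases or whose exons overlap, and the 5 genes most correlated with the members. FBL, NHP2, NOP10 and MYC fall outside that rule and were named after their values were seen. Also named outside it were the cell type markers, genes shared between lists and list genes with too few counts to be tested.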

Additional observations from a re-analysis of the deposited data

How the results depend on the processing

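Over the 9 other settings, 4 to 8 of the 10 host genes were called lower (4 with library totals or upper-quartile factors, 8 with no filter) against 6 as reported. Leaving out 1 library gave 4 to 9, while 2105 to 4075 genes of all were then called lower. None of the 10 host genes was called higher in any of the 15 alternatives. Their median log2 fold change ran from -0.26 to -0.17 over the other settings and from -0.32 to -0.19 with 1 library left out. No called member changed direction; the sign turned in SNHG5 and SNHG8, which were not called as reported, in 2 alternatives each. Library totals moved the median of all genes to 0.085 and upper-quartile factors to 0.051 on the log2 scale, so a small fall is smaller under them. With library totals 1989 genes of all were called lower and 4106 higher, against 3027 lower and 3032 higher. Over the gene lists, 43 genes were called lower and 3 higher as reported, with library totals 19 and 7, with upper-quartile factors 24 and 6, and with no filter 77 lower. Leaving out 1 library gave 21 to 120 lower and 3 to 8 higher, with both highest values without siBYSL library 3. The cause was not tested. The naming rule gave 47 other genes, some of them not printed above, and left out FBL, NHP2, NOP10, MYC and the cell type markers. Of 703 values of these 47 under the alternatives, 623 kept their call, 70 lost it, 10 gained it and 0 reversed. Genes not printed above that lost a call include SNHG18, RPL14, RPL15, SMG9 and MLST8. Replicate numbers did not pair the libraries: deviations of same-numbered libraries correlated at -0.129, 0.0596 and 0.0106, and 1 of 3 siBYSL and 1 of 3 siNC libraries correlated best with its own number. With the replicate number as a block, 6 members were called lower, 2764 genes of all lower and 2802 higher, and 36 list genes lower. SNHG5, with 181 to 222 counts a library, had the widest error of the members, though the errors of the others did not follow their counts.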
